A study of Mus musculus with 4 samples.

Results

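The genes described here are the ligand, receptors, coreceptors, transcription factors and targets of the Hedgehog pathway that the skin data could place in the tissue. The list held 9 genes, *Shh*, *Ptch1*, *Gli1*, *Gli2*, *Gli3*, *Hhip*, *Smo*, *Gas1* and *Boc*, of 32286 features, and all 9 were found by symbol. The dorsal skin was that of *Krox20-CreERT; R26-tdTomato* animals, 3 in number and taken at P38. They carry a tamoxifen-inducible Cre driven by *Krox20* and a *tdTomato* reporter that Cre switches on, and all were given 4-hydroxytamoxifen at P2. No other genotype, age or treatment was included, so every comparison is between places in the same skin. Gene expression was read on 4 Visium slices, whose spots capture the RNA of the tissue lying on them under a barcode for each spot. Every slice carried a section of each of the 3 animals, which makes the slices technical replicates. Their SD and the p-values measure the spread between slices and not between mice.

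Hedgehog ligands are secreted proteins that bind the receptor PTCH1 and thereby release the membrane protein SMO, which then turns the GLI transcription factors towards activation. *Gli1*, *Ptch1* and *Hhip* are well-known transcriptional targets of the pathway, and PTCH1 and HHIP also bind the ligand and limit its spread. GAS1, BOC and CDON are coreceptors, whose genes are known to be lowered by the pathway in the embryo. In growing hair follicles (HFs), *Shh* is known to be made by part of the hair matrix, the dividing epithelium that surrounds the dermal papilla at the base of the follicle.

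The slices held between 19393026 and 26910422 unique molecular identifiers (UMIs, counts of captured RNA molecules). Of 6420 spots over tissue, 6411 with at least 250 detected genes were used. One spot covers several cells, often of more than 1 type, and fewer cells of a type cannot be told apart from less RNA per cell. Each spot was assigned to the region whose marker genes had the highest score, and the 5% of spots of each slice with the highest dermal papilla score were called papilla-near. None of the 9 genes was used in the scores. This gave 441 hair matrix, 321 papilla-near, 739 outer root sheath, 881 inner root sheath, 963 hair shaft, 372 upper follicle, 283 sebaceous gland, 606 interfollicular epidermis (IFE), 441 dermis, 391 fat and 973 muscle spots. The slices were uneven for some regions. In slices 1 to 4, the hair shaft had 388, 267, 189 and 119 spots and the outer root sheath 96, 208, 218 and 217. The score led that of the next region by less than 0.25 in 1584 spots, so neighboring regions mix.

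Marker genes kept out of the scores served as a check of these names. They were highest in their own region for 3 of 4 IFE, 3 of 4 upper follicle, 3 of 4 dermis and 3 of 3 muscle genes. The same held for 2 of 3 sebaceous gland and 2 of 3 fat genes. It held for only 1 of 3 outer root sheath, 1 of 3 inner root sheath, 1 of 2 hair shaft and 2 of 6 hair matrix genes. Of the 6 matrix genes, 5 were highest or second highest in the matrix. The 2 highest there were *Ccnb1* and *Cenpf*, genes of dividing cells. *Dlx3* and *Hoxc13* were highest in the inner root sheath, and *Msx1* and *Lef1* in papilla-near spots. Most genes of the matrix score are also genes of dividing cells, such as *Mki67* and *Top2a*. Hair matrix is therefore used as the name of spots rich in dividing cells. Of the 6 papilla genes, only *Enpp2* was highest in papilla-near spots, and *Prom1* and *Sox18* were close to 0 there. By score, 43.3% of the papilla-near spots would otherwise have been hair matrix, 13.4% muscle and 8.10% inner root sheath spots, but 10.6% would have been IFE, 5.92% sebaceous gland and 3.12% upper follicle spots. Papilla-near is therefore used only as the name of spots with a high papilla score, and not of isolated papilla or of a fixed place.

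*Shh*, the ligand, lies on chromosome 5 from 28456815 to 28467256 (GRCm38, minus strand) and was read from 533 UMIs in 400 spots. In hair matrix spots it reached 13.8, 19.7, 13.0 and 19.7 CPM (UMIs scaled to an equal total in each region and slice) in slices 1 to 4. In papilla-near spots it reached 9.38, 15.2, 14.3 and 9.71 CPM. All of these values were above those of every other region in every slice, whereas the matrix and papilla-near values overlapped. The means were 16.6 ± 3.70 in the matrix and 12.1 ± 3.03 CPM in papilla-near spots (SD, n = 4 slices). The inner root sheath followed at 5.46 ± 1.47, fat at 4.88 ± 1.44 and muscle at 4.50 ± 0.926 CPM. IFE (4.05 ± 2.45), hair shaft (3.46 ± 0.706), outer root sheath (2.31 ± 0.696), dermis (1.82 ± 0.570), upper follicle (1.41 ± 1.11) and sebaceous gland (1.38 ± 1.02 CPM) were at or below the muscle level, and these low levels rest on 4 to 42 UMIs per region. Below papilla-near spots, no neighbors in this order were separated over the slices.

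UMIs of free RNA can also land on tissue without expression of the gene, for which muscle served as the reference. Muscle spots held follicle RNA, however. The matrix score gene *Mki67* reached 114.6 CPM there against 271.9 CPM in the hair matrix. *Krt71* reached 6150 against 14190 CPM in the inner root sheath, whereas *Lor* reached only 111.6 against 5613 CPM in the IFE. Whether the follicle RNA in muscle spots was free RNA was not tested, so muscle is not a blank. Muscle spots lay a median of 7 steps (distances between adjoining spots) from the epidermis and hair matrix spots a median of 6. A *Shh* UMI was found in 21.8% ± 5.04 of hair matrix and 6.37% ± 1.15 of muscle spots, at median depths of 23399 and 13984 UMIs. With 5500 UMIs drawn from each spot, the shares were 7.96% ± 3.38 and 3.19% ± 1.10. In papilla-near spots the share was 13.98% ± 3.93 in full and 3.60% ± 1.011 at 5500 UMIs, the latter close to that of muscle. Outside the hair matrix and papilla-near spots, no region had CPM values that all lay above those of muscle. Since muscle is not a blank, this does not place those regions, or muscle itself, at background.

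**Figure D1:**
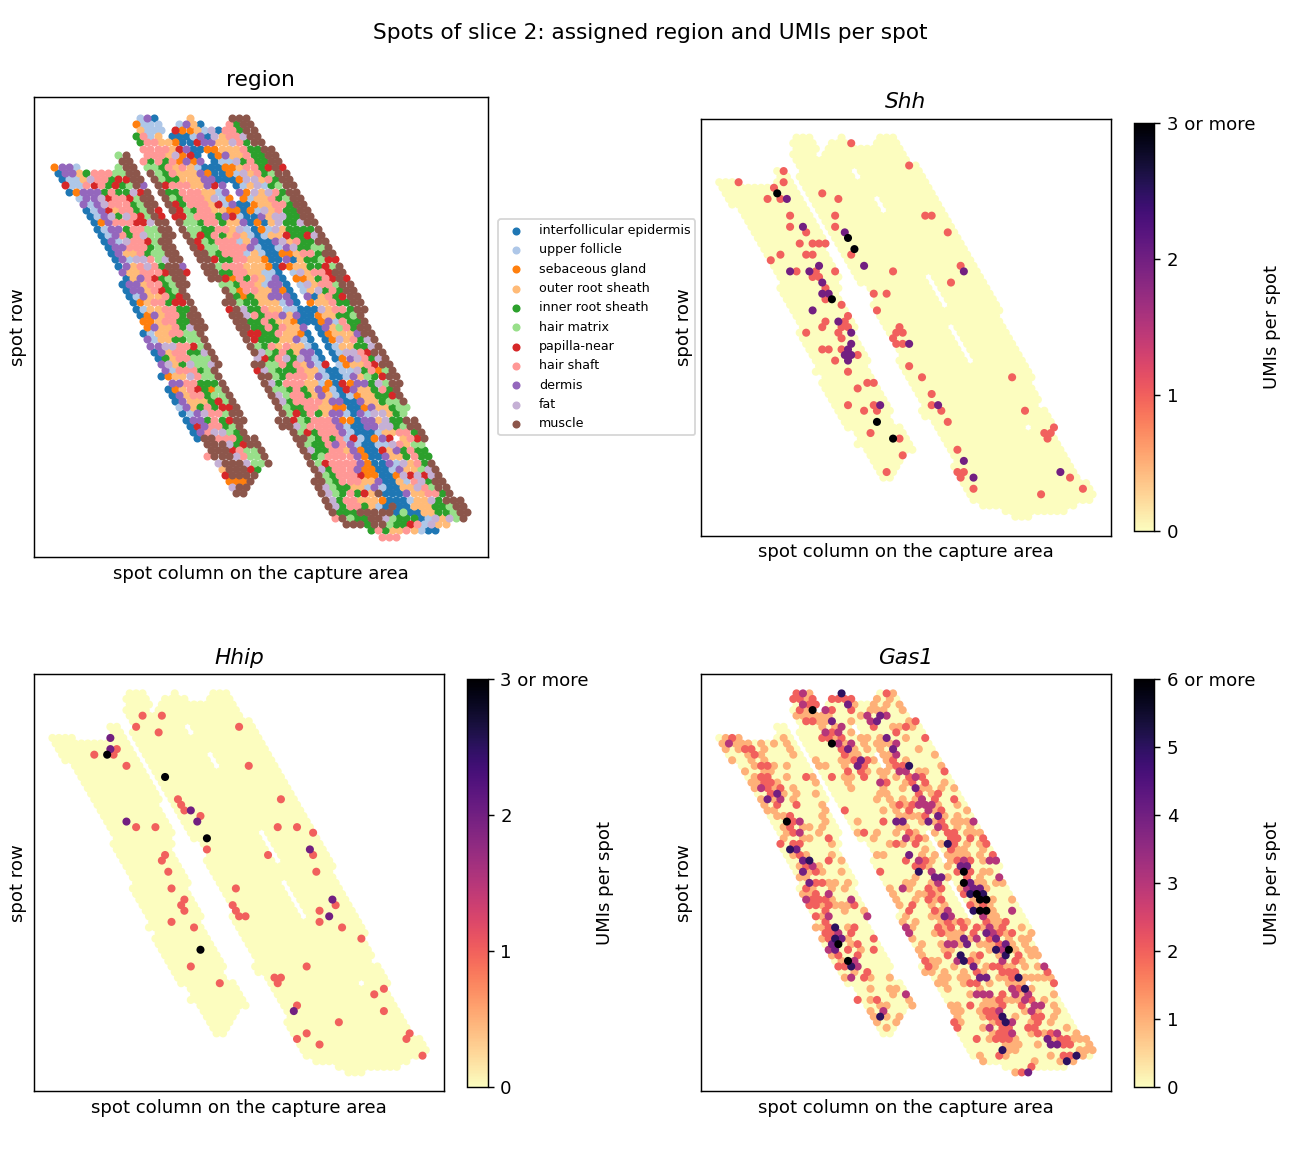
Spots of slice 2 by their column and row on the capture area, colored by assigned region and by the UMIs per spot of *Shh*, *Hhip* and *Gas1*. *Shh* and *Hhip* lie along the deep side of each section, beside the muscle, whereas *Gas1* lies towards the IFE. *Shh* is denser in the left section.

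The first comparison asked where along the follicle the ligand and its targets were highest. *Shh* was 6.63-fold higher in the hair matrix than in the outer root sheath, the outer epithelial layer of the follicle (log2 2.73 ± 0.28, SE, adjusted p = 4.9e-12 in edgeR's quasi-likelihood test). *Gli1*, the activator that the pathway induces, was 4.86-fold higher (log2 2.28 ± 0.17, adjusted p = 1.8e-16). *Ptch1* rose by log2 1.14 ± 0.14 (adjusted p = 3.6e-10) and *Hhip* by log2 1.40 ± 0.46 (adjusted p = 0.0070). The *Hhip* change rests on 48 and 15 UMIs, and its matrix level (4.59 ± 1.08 CPM) was near that of muscle (4.75 ± 1.46 CPM). *Gas1* fell 15.5-fold, a log2 change of -3.95 ± 0.14 (adjusted p = 1.9e-28). Of the 9 genes, 4 were therefore called higher and 1 lower, but the regions differ widely, and 31.7% of the 11926 genes tested were called higher and 33.3% lower. By size, *Shh* ranked at place 77 and *Gli1* at place 200 from the highest change, and *Gas1* at place 101 from the lowest. *Gli2* (0.27 ± 0.18), *Gli3* (0.29 ± 0.18), *Smo* (0.01 ± 0.10) and *Boc* (-0.01 ± 0.18) did not pass the test. The 95% interval of the log2 change of *Smo*, the signal transducer, was -0.19 to 0.21.

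*Ptch1*, the receptor (chromosome 13, 63508328 to 63573598, minus strand), was read throughout the skin, with 3953 UMIs. It reached 54.2, 75.6, 69.9 and 69.9 CPM in the hair matrix of slices 1 to 4 and 45.1, 63.8, 75.4 and 55.8 CPM in papilla-near spots. The outer root sheath gave 24.1, 33.1, 30.1 and 32.0 CPM, below the matrix in every slice. Hair shaft (48.4 ± 6.97), inner root sheath (46.1 ± 3.57), muscle (43.0 ± 1.03) and fat (37.9 ± 2.46 CPM) came between. Sebaceous gland (30.8 ± 10.6), dermis (27.4 ± 9.84), upper follicle (26.9 ± 3.64) and IFE (22.1 ± 2.60 CPM) were low. Only muscle and fat were separated neighbors in this order.

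*Gli1* (chromosome 10, 127329882 to 127341974, minus strand) followed *Shh* more closely. Its level was 31.5, 31.8, 25.1 and 32.4 CPM in the hair matrix and 23.4, 31.6, 31.9 and 30.7 CPM in papilla-near spots. Both sets lay above every value of the other regions. The inner root sheath (14.4 ± 2.73), muscle (13.9 ± 1.08) and fat (12.9 ± 2.59) came next, and the hair shaft gave 9.31 ± 1.35 CPM. The outer root sheath (6.03 ± 0.922), IFE (5.24 ± 1.26), sebaceous gland (4.98 ± 0.711), dermis (4.42 ± 1.80) and upper follicle (3.07 ± 1.37 CPM) were all below the hair shaft.

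**Figure D2:**
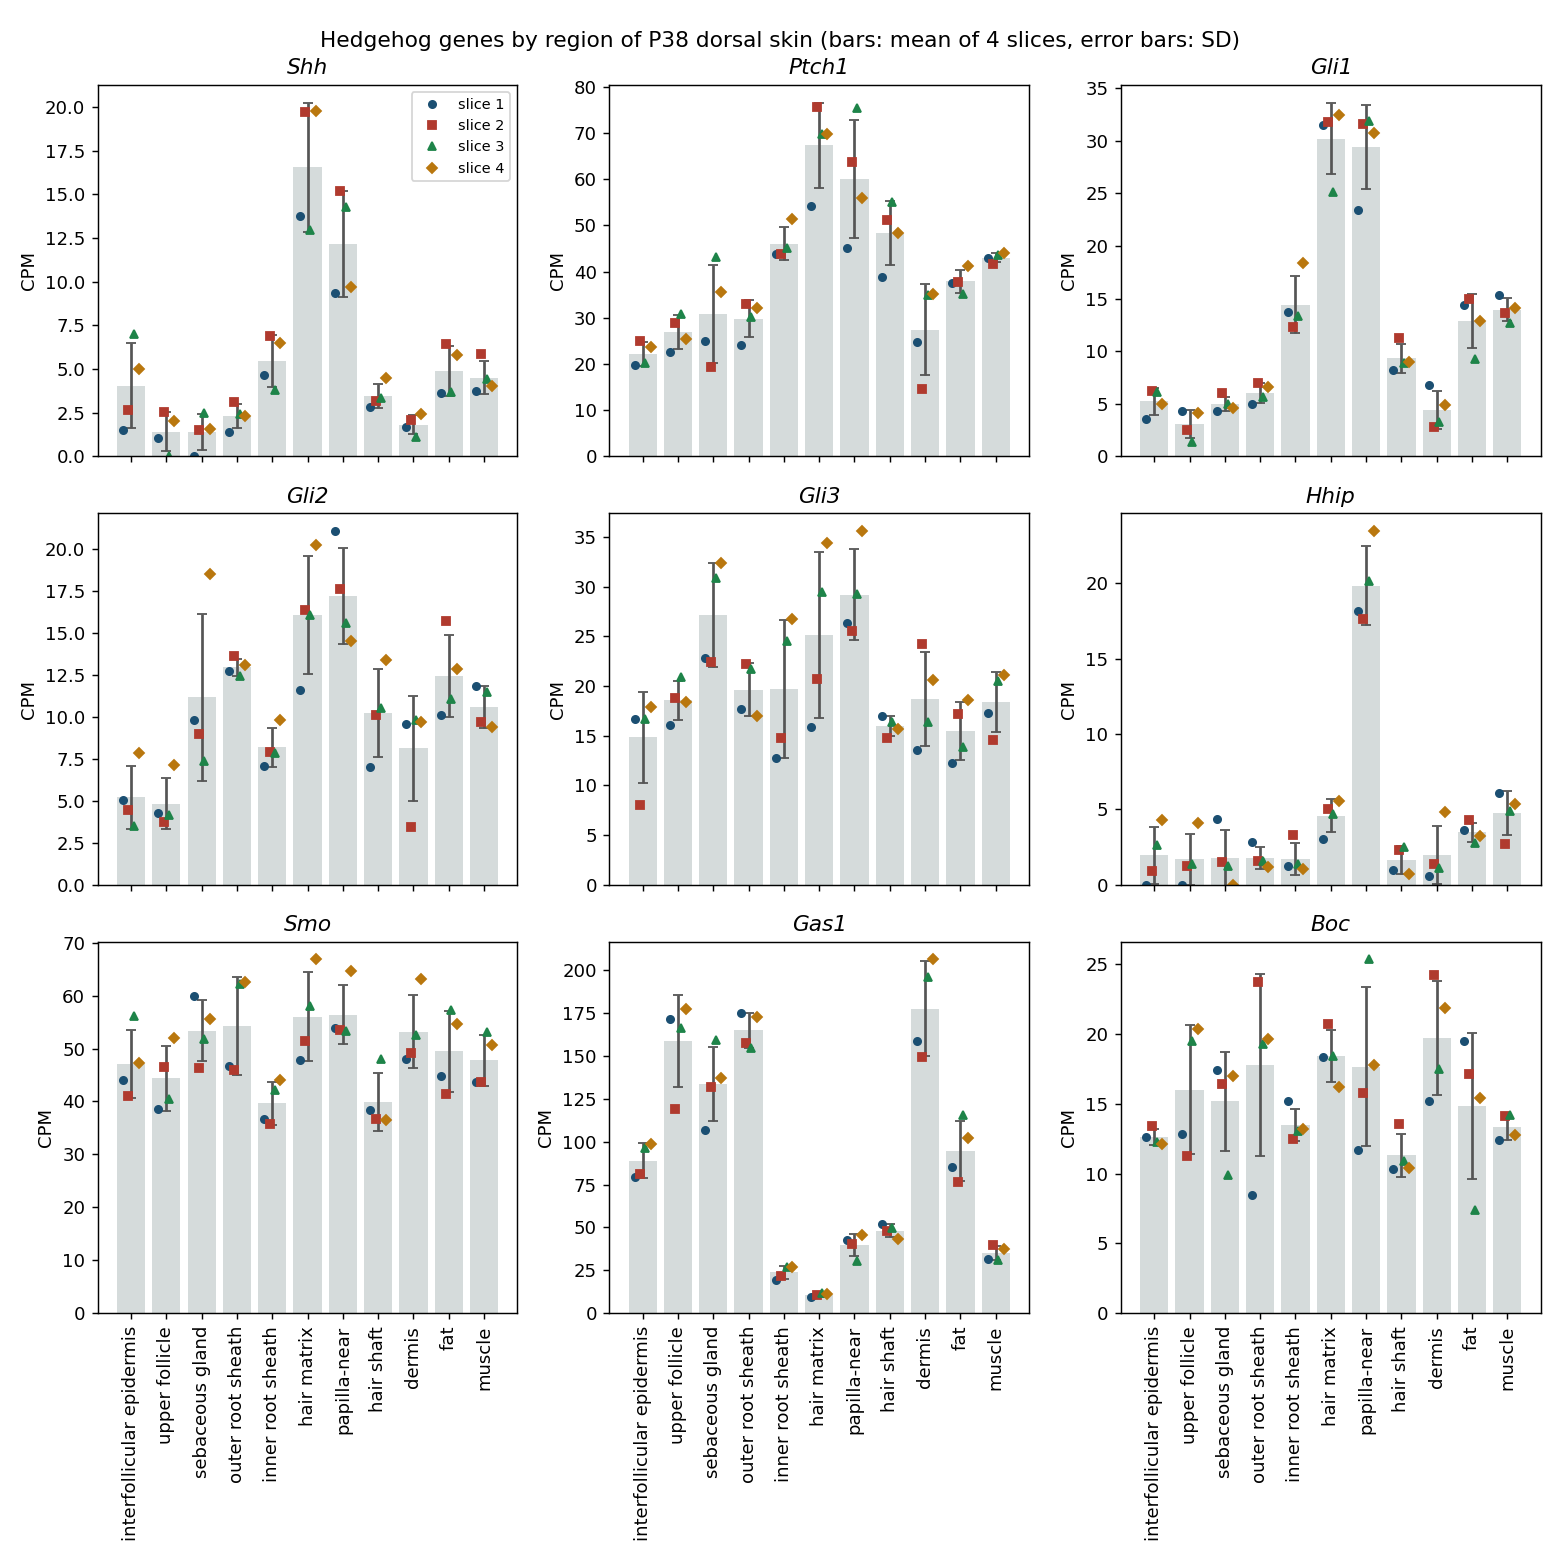
Level of each gene (CPM, linear axis from 0) in the 11 regions. Bars are means of 4 slices, error bars are SDs and symbols are slices. *Shh*, *Ptch1* and *Gli1* are highest in hair matrix and papilla-near spots, *Hhip* stands out in papilla-near spots alone, *Gas1* is lowest in the hair matrix, and *Smo* and *Boc* vary little.

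A further comparison set papilla-near spots against the dermis. *Hhip*, the secreted and membrane-bound decoy of the ligand (chromosome 8, 79965851 to 80058006, minus strand), was 11.5-fold higher in papilla-near spots (log2 3.53 ± 0.45, adjusted p = 3.2e-09) and ranked at place 15 of 11926 genes. Its level there was 18.2, 17.6, 20.2 and 23.5 CPM in slices 1 to 4. In the dermis it was 0.564, 1.38, 1.09 and 4.85 CPM, from 8 UMIs in all. The hair matrix gave 3.06, 5.02, 4.71 and 5.57 CPM, also below all papilla-near values. Muscle (4.75 ± 1.46) and fat (3.47 ± 0.641 CPM) lay near the hair matrix, and the remaining 6 lay between 1.65 and 1.95 CPM.

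*Gli1* (log2 2.62 ± 0.23), *Shh* (2.69 ± 0.41), *Ptch1* (1.20 ± 0.17), *Gli2* (1.12 ± 0.25) and *Gli3* (0.62 ± 0.22) were also higher in papilla-near spots than in the dermis, with adjusted p of at most 0.015. *Gas1* fell by log2 2.15 ± 0.13 (adjusted p = 2.1e-19), whereas *Smo* (0.09 ± 0.12) and *Boc* (-0.17 ± 0.23) did not pass the test. In this comparison 28.1% of 11926 genes were called higher, against 6 of the 9, and 27.8% lower, against 1. The *Gli3* call was lost without slice 1 (log2 0.46, adjusted p = 0.11), slice 3 (0.57, adjusted p = 0.078) or slice 4 (0.57, adjusted p = 0.050). At 5500 UMIs per spot the calls of *Gli3* (0.57, adjusted p = 0.16) and *Gli2* (0.50, adjusted p = 0.55) were lost. Papilla-near spots also carried more of the melanocyte genes *Dct*, *Tyrp1*, *Pmel* and *Mlana*, whose 4 levels summed to 1131 to 1759 CPM against 167.5 to 305.3 CPM in the dermis and 555.8 to 1261 CPM in the hair matrix. Their part in these differences was not tested.

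Between hair matrix and papilla-near spots, *Hhip* and *Gas1* passed the test, and the receptor, the ligand and *Gli1* did not. *Hhip* was 4.19-fold lower in the hair matrix than in papilla-near spots (log2 -2.07 ± 0.30, adjusted p = 8.5e-07), and *Gas1* was 3.58-fold lower (log2 -1.84 ± 0.17, adjusted p = 9.1e-12). In this comparison 7.43% of 11926 genes were called lower and 1.16% higher. None of the 9 genes was called higher in the matrix. The log2 differences of *Shh* (0.47, 95% interval 0.04 to 0.91, adjusted p = 0.20), *Ptch1* (0.21, -0.04 to 0.47) and *Gli1* (0.10, -0.17 to 0.37) did not pass the test. When papilla-near spots were limited to the 139 whose next region was the hair matrix, a choice made after seeing the data, *Hhip* differed by log2 -2.63 (adjusted p = 1.1e-08) and *Gas1* by -0.87 (adjusted p = 0.015).

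Levels also fell with distance from papilla-near spots. *Hhip* went from 19.9 ± 2.64 CPM in these spots to 4.62 ± 0.668 CPM in their direct neighbors (1 step) and 1.57 ± 0.395 CPM at 3 steps. *Gli1* went from 29.4 ± 4.01 to 16.8 ± 2.32 and 11.8 ± 1.28 CPM at 1 and 2 steps, and its means stayed between 8.76 and 11.8 CPM from there on. *Gas1* rose from 39.7 ± 6.45 to 92.5 ± 13.3 CPM at 4 steps. These levels are a description with no test, since marker scores of the same spots set the start of the axis.

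**Figure D3:**
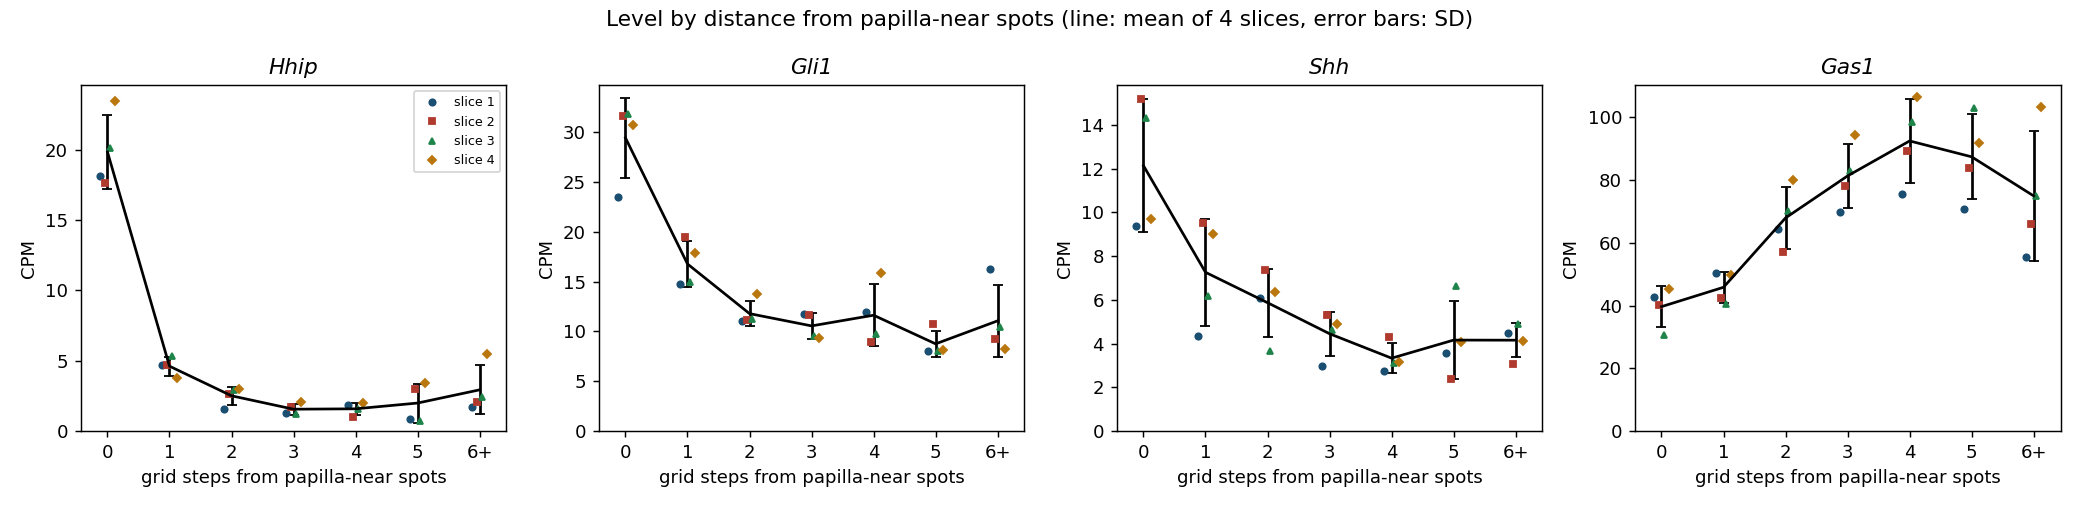
Level (CPM) of *Hhip*, *Gli1*, *Shh* and *Gas1* by distance to the closest papilla-near spot, in steps on the grid, with 6+ for 6 or more steps. Lines are means of 4 slices, error bars are SDs and symbols are slices. *Hhip* drops from 19.9 to 4.62 CPM within 1 step.

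Promoters of the listed genes were also examined. Of the targets, *Ptch1* and *Hhip* were both higher in the hair matrix than in the outer root sheath, and in papilla-near spots than in the dermis. RefSeq promoter sequences (GRCm38.p6, 250 bases before to 50 after the start of the gene) were at hand for 6 of the 9 genes, *Ptch1*, *Gli2*, *Gli3*, *Hhip*, *Smo* and *Gas1*. The GLI consensus GACCACCCA, searched on both strands, was in none of the 6, and was in 83 of 32851 promoters (0.253%). Its inner letters CCACCC, or GGGTGG on the other strand, were in 4 of the 6 (*Gli2*, *Gli3*, *Hhip* and *Smo*) and in 31.5% of all promoters. The promoters of *Ptch1* (chr13:63565686-63565985, minus strand) and *Hhip* (chr8:80057959-80058258, minus strand) are shown from 5′ to 3′, with the inner letters in capitals where they occur. They occur once in *Hhip* and not in *Ptch1*. The RefSeq starts of *Ptch1* and *Gli3* lie inside the GENCODE spans of these genes, so their windows do not cover the outermost starts. A match describes these letters alone.
*Ptch1*: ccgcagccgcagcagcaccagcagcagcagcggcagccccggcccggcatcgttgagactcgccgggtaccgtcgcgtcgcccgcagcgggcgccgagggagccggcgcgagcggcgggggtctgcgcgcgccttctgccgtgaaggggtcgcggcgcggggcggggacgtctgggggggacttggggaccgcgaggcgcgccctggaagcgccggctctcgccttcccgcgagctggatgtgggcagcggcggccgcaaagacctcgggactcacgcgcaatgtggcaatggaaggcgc
*Hhip*: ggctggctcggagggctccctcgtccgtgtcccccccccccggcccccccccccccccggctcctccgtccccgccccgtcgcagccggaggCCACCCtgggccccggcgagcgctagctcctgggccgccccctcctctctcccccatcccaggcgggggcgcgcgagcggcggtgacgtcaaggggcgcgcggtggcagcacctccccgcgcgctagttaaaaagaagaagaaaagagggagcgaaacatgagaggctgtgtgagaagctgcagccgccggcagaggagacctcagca

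*Gas1*, a coreceptor anchored in the cell membrane (chromosome 13, 60174405 to 60177365, minus strand), had largely the opposite pattern to *Gli1* and *Ptch1*. Like *Hhip*, however, it was higher in papilla-near spots than in the hair matrix. It reached 158.6, 149.5, 195.9 and 206.2 CPM in the dermis of slices 1 to 4, 174.8, 157.5, 154.6 and 172.4 CPM in the outer root sheath and 171.4, 119.3, 166.1 and 177.5 CPM in the upper follicle. The hair matrix gave 9.49, 10.4, 11.8 and 11.1 CPM, the lowest level of the 11 regions and below every slice of the inner root sheath (23.7 ± 3.83 CPM). Sebaceous gland (134 ± 21.6), fat (94.8 ± 17.5), IFE (89.0 ± 9.99), hair shaft (48.2 ± 3.81), papilla-near spots and muscle (35.0 ± 4.24 CPM) lay between. The steps from IFE to hair shaft, from muscle to inner root sheath and from there to the hair matrix were the only ones at which neighbors in the order did not overlap.

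Near the skin surface, *Gas1* was 1.79-fold higher in the upper follicle than in the IFE (log2 0.84 ± 0.12, adjusted p = 4.0e-07), in a comparison in which 6.93% of 11926 genes were called higher and 7.89% lower. The other 8 genes did not pass the test there. *Shh* had the lowest estimate, log2 -1.33 ± 0.62 (adjusted p = 0.17), from 5 and 21 UMIs. Between the dermis and the outer root sheath, *Gas1* differed by log2 0.04 ± 0.11, with a 95% interval of -0.17 to 0.25.

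The other GLI transcription factors were *Gli2* (chromosome 1, 118834132 to 119053619, minus strand), the main activator of the pathway, and *Gli3* (chromosome 13, 15463235 to 15730026, plus strand), largely a repressor. Both had smaller differences between hair matrix and outer root sheath than the targets, with no call in the main setting. Without slice 1, *Gli3* was called higher in the hair matrix (log2 0.44, adjusted p = 0.035 in edgeR's test). Across the regions, *Gli2* had its highest means in papilla-near spots (17.2 ± 2.88), the hair matrix (16.1 ± 3.53) and the outer root sheath (13.0 ± 0.505 CPM), and its lowest in the IFE (5.23 ± 1.88) and the upper follicle (4.85 ± 1.55 CPM). *Gli3* ranged from 14.8 ± 4.55 CPM in the IFE to 29.2 ± 4.56 CPM in papilla-near spots. Over the slices, no neighbors in either order were separated.

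Along the follicle, *Gli2* was 2.61-fold higher in the outer root sheath than in the upper follicle (log2 1.39 ± 0.32, adjusted p = 7.9e-04). The outer root sheath gave 12.7, 13.6, 12.5 and 13.1 CPM and the upper follicle 4.29, 3.77, 4.19 and 7.14 CPM, so that the values did not overlap. This was the single call among the 9 genes, against 9.29% of 11926 genes called higher and 9.78% called lower. *Gli2* was also the single call between dermis and outer root sheath, lower in the dermis by log2 -0.75 ± 0.25 (adjusted p = 0.025), where 9.58% of genes were called lower and 10.6% higher. This call rested on slice 2, in which the dermis gave 3.46 CPM against 9.59 to 9.85 CPM in the others. Without it the log2 difference was -0.38 (adjusted p = 0.47), and the call was lost under 7 other alternatives as well.

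*Smo* (chromosome 6, 29735503 to 29761365, plus strand) and the coreceptor *Boc* (chromosome 16, 44485049 to 44558897, minus strand) showed no called difference in the comparisons described, and *Smo* passed only between outer root sheath and upper follicle with spots of close scores left out (log2 0.46, adjusted p = 0.046). *Smo* ranged from 39.7 ± 4.07 CPM in the inner root sheath to 56.4 ± 5.59 CPM in papilla-near spots, and *Boc* from 11.3 ± 1.53 CPM in the hair shaft to 19.7 ± 4.07 CPM in the dermis. With 4370 UMIs for *Smo*, 95% intervals of its log2 differences lay within -0.35 to 0.56. *Boc*, with 1387 UMIs, had intervals within -0.63 to 0.90.

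The same genes were also ordered by distance from the epidermis, an axis that uses the assignment of the IFE but not that of the deeper regions. *Shh* stayed between 2.33 and 4.05 CPM up to 4 steps from the nearest IFE spot and reached 11.8, 13.3, 8.27 and 11.9 CPM at 7 steps. The mean of *Shh* peaked there, as did that of *Gli1* (22.7 ± 1.73 CPM), and the mean of *Ptch1* peaked at 6 steps (60.5 ± 10.7 CPM). Not every slice peaked at these steps. At 8 steps *Shh* gave 5.35, 15.7, 3.90 and 14.5 CPM, above its values at 7 steps in slices 2 and 4. In slice 1, *Gli1* was highest at 5 steps (21.1 CPM) and *Ptch1* at 8 steps (51.6 CPM). By its means, *Gas1* was highest at 1 and 2 steps, at 162 ± 16.1 and 157 ± 6.37 CPM, and lowest at 6 steps, at 16.4 ± 3.72 CPM.

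Spots at 1 to 2 steps were then compared with spots at 5 to 7 steps. *Gas1* was 7.67-fold higher near the epidermis (log2 2.94 ± 0.09, adjusted p = 9.3e-12). *Shh* (log2 -1.81 ± 0.26, adjusted p = 2.8e-05), *Gli1* (-1.82 ± 0.15, adjusted p = 9.4e-08), *Hhip* (-1.51 ± 0.26, adjusted p = 1.3e-04), *Ptch1* (-1.04 ± 0.11, adjusted p = 1.3e-06) and *Gli2* (-0.50 ± 0.14, adjusted p = 0.0062) were lower there. *Gli3* (-0.29 ± 0.15), *Smo* (0.16 ± 0.09) and *Boc* (0.25 ± 0.14) did not pass the test. At 5500 UMIs per spot *Gli2* lost its call (-0.43, adjusted p = 0.17), whereas *Gli3* passed (-0.46, adjusted p = 0.028), as it did without slice 2 (-0.44, adjusted p = 0.030). Of 12904 genes, 33% were called higher and 32.2% lower near the epidermis, so the split of 1 against 5 among the 9 genes stands beside an even split over all genes.

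**Figure D4:**
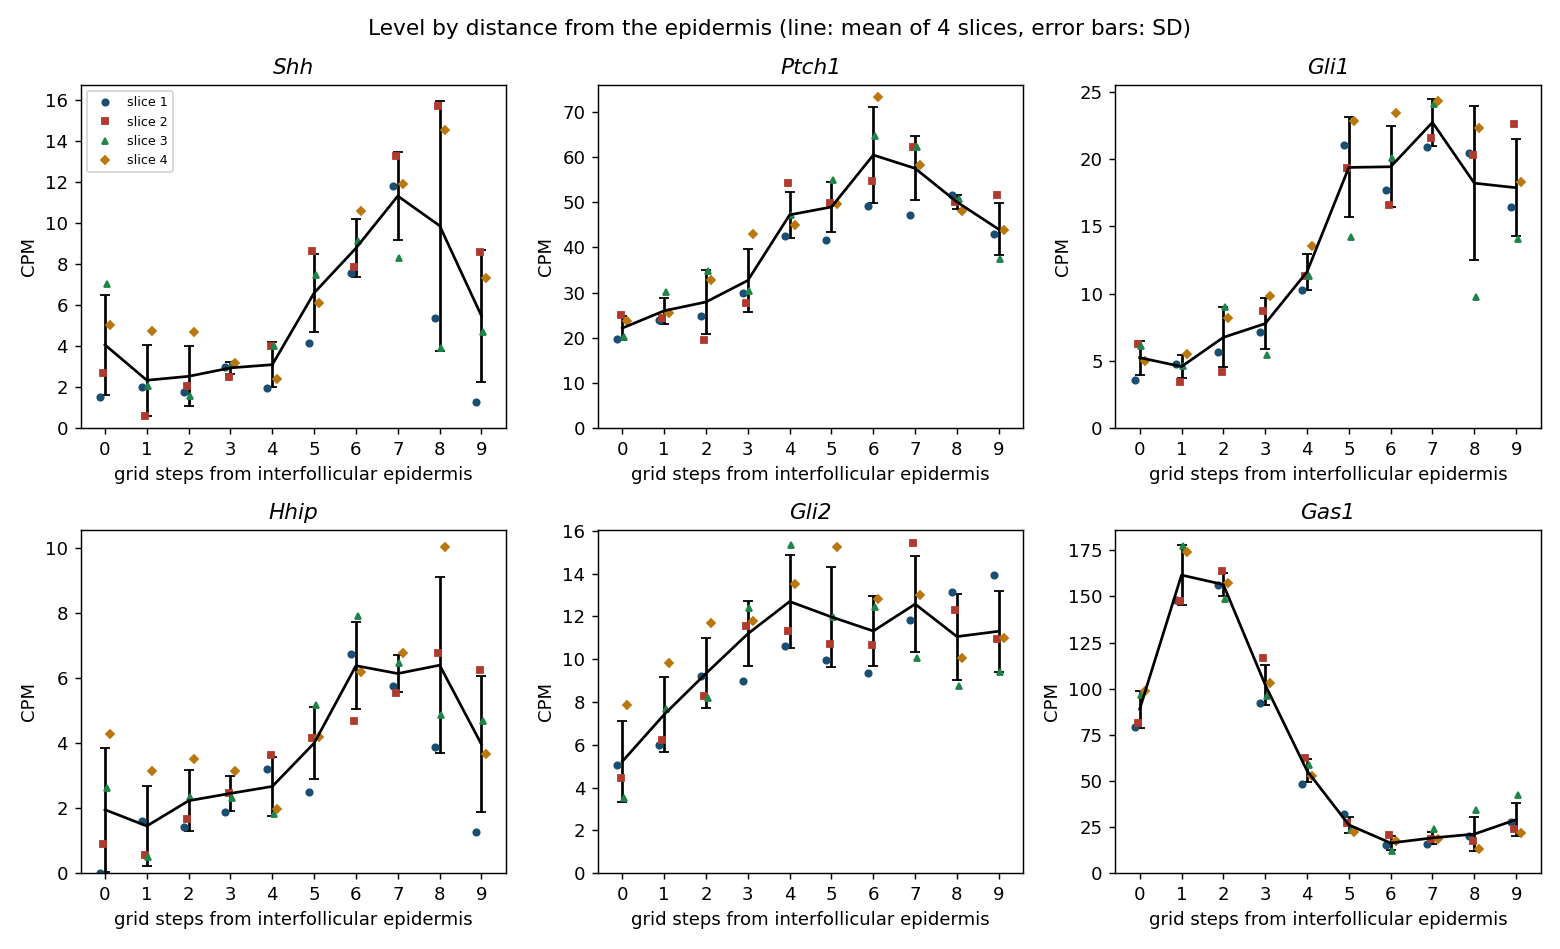
Level (CPM) by distance to the closest IFE spot, in steps on the grid from 0 (IFE) to 9. Lines are means of 4 slices, error bars are SDs and symbols are slices. The means of *Shh* and *Gli1* peak at 7 steps and that of *Ptch1* at 6 steps, though not in every slice. Mean *Gas1* falls from 162 CPM at 1 step to 16.4 CPM at 6 steps.

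The last comparison asked whether targets were higher in the hair matrix spots that held the ligand. Of the 441 hair matrix spots, 96 held at least 1 *Shh* UMI, and their median depth was 24678.5 UMIs against 22807 in the other 345. *Shh* chose the spots and was not tested. *Ptch1* gave 58.0, 86.6, 93.4 and 72.2 CPM in *Shh*-containing and 53.4, 70.4, 62.8 and 69.1 CPM in *Shh*-free spots of slices 1 to 4, and *Gli1* gave 37.4, 39.7, 25.5 and 42.9 against 30.4, 28.1, 25.0 and 28.7 CPM. Both were higher in 4 of 4 slices, which carry sections of the same 3 animals and are not independent. Neither *Ptch1* (log2 0.33 ± 0.15) nor *Gli1* (0.39 ± 0.18) passed edgeR's test over 9042 genes, each with an adjusted p = 0.996. The estimate of *Ptch1* was 0.24 to 0.80 over 9 alternatives, highest at 5500 UMIs per spot, and passed in none of them. *Hhip*, with 12 and 36 UMIs, was too sparse to be tested, and the other genes of the list differed by log2 -0.36 to -0.04 with no call.

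Beside *Shh* itself, edgeR called 2 genes higher in the *Shh*-containing spots and 0 lower. Of the 9042 genes tested, 369 had an unadjusted p under 0.05 in edgeR and 159 in DESeq2. Both counts are below the share of 0.05 that chance alone gives. With *Shh*, this was 0.0332% of the genes called higher and 0% called lower. *Wif1*, a secreted WNT inhibitor of the dermal papilla, was among the calls and is named for that reason, after its values were seen. It gave 58.0, 57.4, 40.7 and 72.2 CPM in *Shh*-containing and 33.3, 22.6, 23.0 and 22.6 CPM in *Shh*-free spots. It was thus higher in 4 of 4 slices without overlap (log2 1.14 ± 0.19, adjusted p = 0.032). *Wif1* was 1 of the papilla score genes, so spots of high *Wif1* were more readily counted as papilla-near than as hair matrix.

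The *Wif1* call depended on single slices. Leaving out a single slice gave adjusted p between 0.016 and 0.76, and it was called only without slice 1. At 5500 UMIs per spot it did not pass. DESeq2 called 3 genes, *Wif1* among them. The log2 difference of *Wif1* stayed between 0.99 and 1.73 over 9 alternatives. When the sections were split by position into 3 strips, probably 1 mouse each although the labels do not say so, *Wif1* was 4.71, 1.59 and 0.719 times as high in *Shh*-containing spots of strips 1 to 3. *Ptch1* was 1.37, 1.22 and 0.925 times as high there, so that *Wif1* and *Ptch1* were both lower in strip 3, and *Gli1* was 1.15, 1.30 and 1.54 times as high. Strip 1 had 32 *Shh*-containing and 78 *Shh*-free spots, strip 2 had 46 and 165, and strip 3 had 18 and 102. The pooled sums therefore mix the strips in unlike shares, and the part of this in the differences was not tested. Strip 3 held only 9 UMIs of *Wif1*, 21 of *Ptch1* and 16 of *Gli1* in its *Shh*-containing spots, so its ratios are uncertain.

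**Figure D5:**
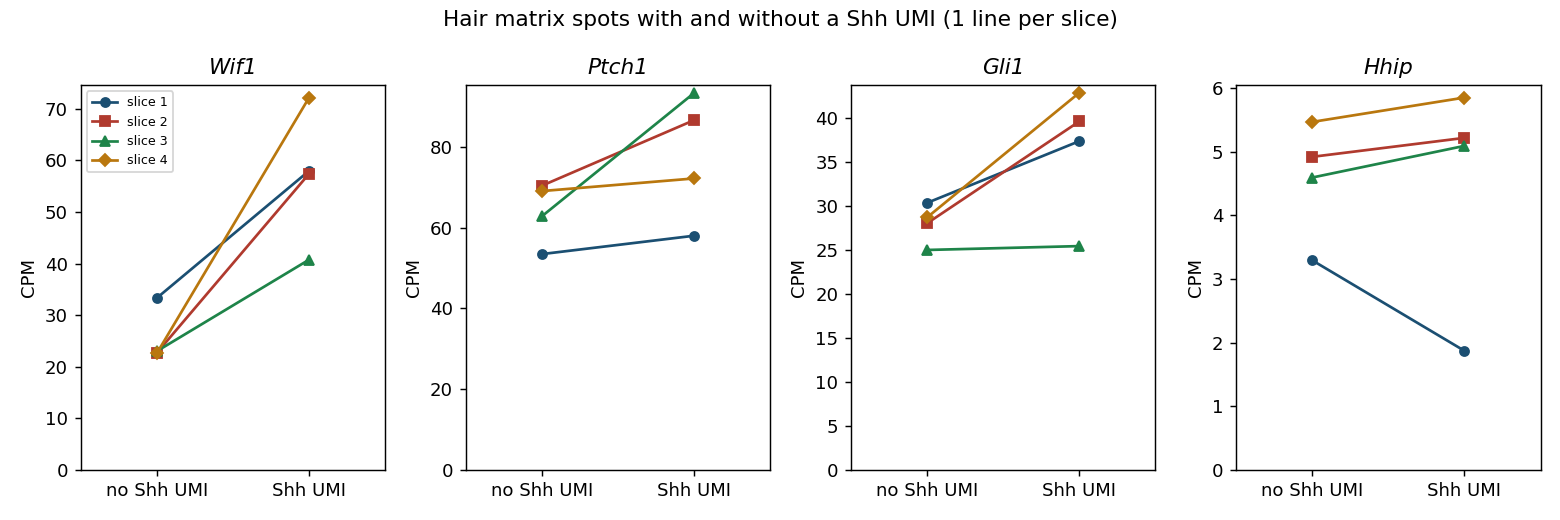
Level (CPM, linear axes from 0) in hair matrix spots without and with a *Shh* UMI, with 1 line per slice. *Wif1* rises in all 4 slices, *Ptch1* and *Gli1* rise in all 4 by smaller amounts, and *Hhip* is slightly higher in 3 slices and lower in slice 1.

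A list of 38 other Hedgehog genes, from ligand release to further targets, set these patterns in context. Of the 38, 27 were expressed enough to be tested between regions. Between hair matrix and outer root sheath, 8 were higher and 8 lower, with a median log2 change of -0.02 beside -0.01 over all genes. These 8 and 8 of 27 are near the shares of 31.7% and 33.3% over all genes. Among the largest changes were those of *Sox9* (-4.29 ± 0.18), a transcription factor of the outer root sheath and HF stem cells, *Mycn* (3.82 ± 0.20), which drives growth, *Scube3* (2.39 ± 0.57), which helps to release the ligand, and *Foxe1* (1.11 ± 0.12), a forkhead factor.

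Between papilla-near spots and dermis, 9 of the 27 were higher and 5 lower (median 0.08 beside 0.03 over all genes), where 28.1% and 27.8% of all genes were called. *Mycn* (2.80 ± 0.22) and *Scube3* (2.56 ± 0.57) rose, whereas *Sox9* (-2.29 ± 0.17) and the coreceptor *Cdon* (-1.58 ± 0.39) fell. *Cdon* was at 11.01 ± 3.44 CPM in the dermis and 3.37 ± 1.74 CPM in papilla-near spots. Between hair matrix and papilla-near spots 1 of the 27 was higher and 1 lower, beside 1.16% and 7.43% of all genes. The counts were 2 and 1 between upper follicle and IFE (6.93% and 7.89% of all genes), 3 and 2 between outer root sheath and upper follicle (9.29% and 9.78%), and 1 and 5 between dermis and outer root sheath (10.6% and 9.58%). With distance from the epidermis, 11 of 31 tested were higher and 10 lower at 1 to 2 steps, beside 33% and 32.2%.

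Across the 44 sums of 11 regions in 4 slices, genes with a mean of at least 5 CPM were ranked by their correlation with each of 4 genes, as a description in which all sums share their slices and regions. For *Shh*, *Robo1* (r = 0.89) and *Gli1* (0.89) led, followed by *Wdr5*, *Gart* and *Ebna1bp2* (0.87 to 0.88). For *Gli1*, the 5 nearest were *Cad*, *Rpl6*, *Rpl15*, *Cux1* and *Snrpd3* (0.93 to 0.94). For *Ptch1*, they were *Plk4*, *Eif3a*, *Dlx3*, *Uchl5* and *Dlx2* (0.85 to 0.87). For *Hhip*, they were *Corin* and *Inhba*, both genes of the papilla score, and *Mthfd1*, *Cbx3* and *Rif1* (0.77 to 0.84). Within the list, *Gli1* and *Gas1* ran opposite to each other (r = -0.83), and *Smo* and *Gas1* were close to unrelated (0.11).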

How the data were processed

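Spatial transcriptomics of P38 dorsal skin was re-analyzed from deposited UMI counts, given by the authors per gene and spot without normalization. The authors made them with Space Ranger 2.0.1 (version per the file headers) against mm10 per the labels. The authors excluded 1 section for its structure, and which deposited spots it corresponds to is not given, so spots of all 4 slices were used. The 9 genes and all lists were chosen with earlier results of these data known.

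Spots with at least 250 genes were kept. Region scores were mean z scores of log2(CPM + 50) over marker genes, so genes expressed with these markers differ between regions partly by construction. For each region, the UMIs of a slice were added up, and edgeR 4.0.16 in R 4.3.3 compared these sums by its quasi-likelihood test after TMM scaling and filterByExpr, with Benjamini-Hochberg adjustment over all genes and a threshold of 0.05. On simulated data for hair matrix against outer root sheath (11926 genes), 76.5% of 200 genes changed by log2 1 were recovered and 3.77% of calls were false. Unlike the real data, the simulation drew all regions from a shared mean, changed only these 200 genes and drew the sums independently. It therefore does not give the share of false calls in the real comparisons. Steps were counted on the hexagonal spot grid. Shares were also computed at 5500 UMIs per spot, leaving out 563 shallower spots. Doublets were not called, because spots are not single cells. Positions are from GENCODE M21.

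Named genes were the 9 genes, up to 5 of the other Hedgehog genes with the largest called changes in each of 2 comparisons, and the 5 best correlated genes. A gene that these rules name is not reported here. All sums of a slice share its sections. Their departures from the mean of each region had same-slice correlations of 0.172, 0.106, 0.066 and 0.1, so slice numbers pair the sums. Alternatives covered Seurat 5.3.0 clusters, spots with close scores, the score pseudocount, papilla-near shares, thinning, strips, library size alone, DESeq2 1.42.0, no low-count filter, the slice as a block, each slice left out, at least 2 *Shh* UMIs and steps through tissue.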

Additional observations from a re-analysis of the deposited data

Results flagged for a closer look

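Levels of the 9 genes in 11 regions gave 99 sets of 4 slices, and in 9 of them 1 slice lay far from the other 3 by Dixon's test, where chance flags about 1 in 20. *Gli1* was at 25.1 CPM in the hair matrix of slice 3, against 31.5 to 32.4 CPM, and at 23.4 CPM in papilla-near spots of slice 1, against 30.7 to 31.9 CPM. *Gli2* was at 3.46 CPM in the dermis of slice 2, against 9.59 to 9.85 CPM, and at 7.14 CPM in the upper follicle of slice 4, against 3.77 to 4.29 CPM. *Gli3* was at 8.04 CPM in the IFE of slice 2, against 16.7 to 17.9 CPM. *Hhip* was at 3.32 CPM in the inner root sheath of slice 2, against 1.04 to 1.36 CPM. *Smo* was at 64.7 CPM in papilla-near spots of slice 4, against 53.3 to 53.9 CPM, and at 47.9 CPM in the hair shaft of slice 3, against 36.5 to 38.4 CPM. *Boc* was at 9.88 CPM in the sebaceous gland of slice 3, against 16.4 to 17.4 CPM.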

How the results depend on the processing

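The next counts are for 15 differences chosen as answers to the comparisons, including *Ptch1* in *Shh*-containing spots, which was never called. Of their 202 alternative values, 193 kept their direction and their side of the threshold. The other 9 were *Gli2* calls that were lost. Between outer root sheath and upper follicle, *Gli2* gave a log2 difference of 1.42 (adjusted p = 0.062) with thinned spots. Between dermis and outer root sheath it gave -0.49 with close scores left out, -0.63 and -0.65 with papilla-near spots from 3% and 10% of spots, -1.17 with thinned spots, -0.75 with sums per strip, -0.72 with DESeq2, and -0.91 to -0.38 with a slice left out, lost without slice 2 or slice 3. Outside the 15 differences, 10 alternative values lost a call. They were of *Gli2* and *Gli3* between papilla-near spots and dermis, *Gli2* by distance from the epidermis and *Wif1* in *Shh*-containing spots. Another 6 gained a call. They were of *Gli3* between hair matrix and outer root sheath without slice 1 and *Gli3* by distance from the epidermis. Between outer root sheath and upper follicle they were of *Smo* and, with clusters, of *Gli1* (log2 0.81, adjusted p = 0.047 in edgeR's test). The number of the 9 genes called fell to 3 with thinned spots in hair matrix against outer root sheath and in papilla-near spots against dermis, and to 1 in hair matrix against papilla-near spots. Between outer root sheath and upper follicle it was 3 with clusters, 2 with close scores left out and 0 with thinned spots. Between dermis and outer root sheath it was 0 in each setting that lost *Gli2*. The shares of all genes called were computed for the main setting only. These changes in number can therefore not be read as particular to the 9 genes. *Gas1* turned to log2 -0.52 between outer root sheath and upper follicle with regions from clusters. With thinned spots, *Shh* and *Hhip* fell below the low-count filter and were not tested between regions. Other causes were not tested. Clusters named no dermis, so its comparisons have no value there.

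With the slice as a replicate block (the pairing of sums), *Shh* gave log2 2.77 and *Gas1* -3.94 between hair matrix and outer root sheath, and *Hhip* -2.06 between hair matrix and papilla-near spots. The block changed 1 call, *Gli3* by distance from the epidermis (log2 -0.29, adjusted p = 0.049).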

Other observations

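The level of *Shh* in hair matrix spots differed between the 3 strips of tissue. Over all slices it was 24.4, 15.1 and 8.62 CPM in strips 1 to 3. Within slices, strip 1 gave 18.6, 30.1, 16.7 and 40.6 CPM, strip 2 gave 12.9, 14.5, 12.7 and 22.3 CPM, and strip 3 gave 8.41, 10.5, 9.07 and 7.21 CPM, so that strip 1 was highest and strip 3 lowest in each of the 4 slices. Counts were small, with 5 to 34 UMIs per strip and slice. *Ptch1* in the hair matrix had the same order in each of the 4 slices, at 78.5, 64.1 and 57.1 CPM over all slices. *Hhip* in papilla-near spots, at 17.3, 20.4 and 20.3 CPM, and *Gli1* in the hair matrix, at 34.5, 28.4 and 28.7 CPM, spanned a smaller range over the strips. In papilla-near spots *Shh* did not have the order of the matrix, at 9.96, 16.6 and 8.13 CPM. *Gas1* in the hair matrix was highest in strip 3, at 8.86, 8.87 and 16.4 CPM. The labels do not tie strips to mice, so the strips are not groups of the study and no test was made.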
